A study of Saccharomyces cerevisiae with 15 samples.

Results

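The heat shock factor Hsf1 of budding yeast carries an amino-terminal and a carboxyl-terminal contact site for the chaperone Hsp70, and the series holds strains with either site or both mutated. The interaction of these sites asks whether mutating both changes a transcript by more or by less than the single mutations do when their changes are added. It rests on 12 of the 15 libraries of the series, chosen by strain and temperature alone. They are 3 replicates each of wild type HSF1, of hsf1-mN (mutated amino-terminal Hsp70 site, here mN), of hsf1-mC (mutated carboxyl-terminal site, here mC) and of hsf1-mNmC (both sites mutated, here mNmC). All 4 strains of Saccharomyces cerevisiae were grown in rich YPD medium at 30 °C and harvested in mid-log phase with no heat treatment. The other 3 libraries, wild type shifted to 37 °C for 15 min, do not enter the contrast. The sources used here do not give the residues changed, the strain background, the number of clones or whether the alleles sat on a plasmid or in the genome, so an allele and any other difference of its strain cannot be told apart. The labels do not say whether replicates were separate cultures, so the p-values measure the spread between these libraries, which may be technical.

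Hsf1 drives the transcription of heat shock genes, and its targets are mostly chaperone genes. Cytosolic Hsp70 binds Hsf1 and holds it back in unstressed cells, and unfolded proteins draw Hsp70 away, which closes a feedback loop because Hsp70 genes are themselves Hsf1 targets. A mutated contact site is therefore a way to free Hsf1 from this hold without heat.

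The interaction value of a gene is its mean log2(FPKM + 1) in mNmC, minus that in mN, minus that in mC, plus that in wild type. FPKM is the read count per kilobase of gene, scaled to the size of the library. A value of 0 means that the fold changes of the single mutants multiply to give the level in mNmC, a positive value that mNmC lies above that level, and a negative value that it lies below. The level that the single mutants would give at a value of 0 is called the expected level. Values are given ± SE from limma, genes with Benjamini-Hochberg adjusted p under 0.05 over 6399 tested genes are called, and higher or lower means above or below the expected level. In bulk cultures, fewer cells with a transcript and less of it per cell cannot be told apart.

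The library labelled mNmC replicate 3 stood apart. Across genes, its mean Spearman correlation was 0.921 with mNmC replicates 1 and 2 and 0.997 with replicates 1 and 2 of wild type at 37 °C, while mNmC replicates 1 and 2 had 0.996 with each other. In turn, the library labelled wild type at 37 °C replicate 3 had 0.996 with mNmC replicates 1 and 2, so the values as labelled may rest on exchanged libraries, which was not tested. No library was moved to another group, and values and calls are without this library (11 libraries, with n = 2 for mNmC) unless given as labelled (12 libraries). The 12 libraries held between 15462618 and 25409519 reads. Replicate 1 of mN also stood apart in the balance of short and long genes, as described with the ribosomal protein genes.

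As labelled, 333 genes were called (5.2% of those tested), 242 higher (3.78%) and 91 lower (1.42%). Without mNmC replicate 3, 2007 genes were called (31.4%), 1282 higher (20.0%) and 725 lower (11.3%), and all 242 and all 91 kept their call and direction. Of these 2007, 58 had the opposite sign as labelled, where none of the 58 passed. The median SE of the interaction was 0.23 as labelled and 0.16 without this library. The median over all genes was 0.14 in both. With a common upper quartile in every library (upper-quartile scaling) it was -0.02 and -0.01, and the calls became 158 higher and 172 lower as labelled and 1017 higher and 1135 lower without mNmC replicate 3. The balance of higher and lower calls over the genome therefore depends on the scaling, while no gene called without scaling took the opposite sign with it. On the FPKM scale itself, where additivity means adding levels and not fold changes, 0 of the called genes took the opposite sign.

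Against wild type and without mNmC replicate 3, mN had 10.9% of all genes called above and 4.47% below, mC 9.47% and 1.91%, and mNmC 38.2% and 6.75%. The genes called higher and lower for the interaction had different single-mutant patterns, which are descriptive because the same libraries enter both. Of the 1282 higher without mNmC replicate 3, 839 (65.4%) were also called above wild type in mNmC, against 38.2% of all genes. In 984 (76.8%) neither single mutant was called, but single mutant calls were few over all genes too. For the 984, and for the orders of strains that follow, the share of all genes was not counted. These counts are therefore not read as traits of the called genes. The single mutants both lay below wild type and mNmC above it in 657 of the 1282. Of the 725 lower, both single mutants lay above wild type in 625, mN was called above wild type in 343 and mC in 272. In 348 of these 725 both single mutants lay above wild type and mNmC below it. A strict form of this reversal, in which each mutation moved the gene in opposite called directions with and without the other, was met by 116 genes (1.81% of those tested). In 86 of them each single mutation raised the gene and adding the other lowered it, and in 30 the order was the opposite.

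**Figure D1:**
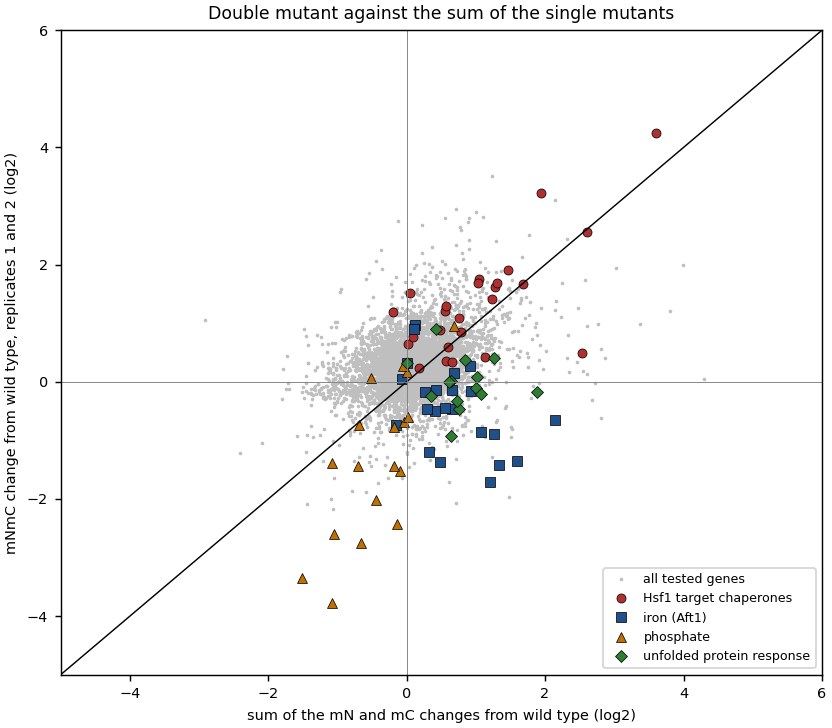
Change of each gene from wild type in mNmC replicates 1 and 2 (vertical axis, log2) against the sum of its changes in mN and mC (horizontal axis, log2). Each point is a gene, coloured points are members of 4 gene lists, and the diagonal marks an interaction of 0: most Hsf1 target chaperones lie on or above it, and most iron, phosphate and unfolded protein response genes lie below it.

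HSF1 (YGL073W) itself departed from additivity, with opposite changes in the single mutants. It stood at 154.5, 152 and 158 FPKM in wild type, 86.1, 109.7 and 106 in mN, 261, 230.4 and 247 in mC, and 52.1 and 59.4 in mNmC, with 149.9 in the library labelled replicate 3. The mN libraries all lay below wild type, the mC libraries all above, and mNmC replicates 1 and 2 below every other library. The single mutants gave an expected level of 159 FPKM, close to wild type, and the interaction was -1.50 ± 0.15 (adjusted p = 0.000107). As labelled it was -1.03 ± 0.44 (adjusted p = 0.19). Wild type at 37 °C read 158.9 and 148.5 FPKM in replicates 1 and 2, and 67.6 in the library labelled replicate 3. Whether libraries were exchanged was not tested, and a transcript level alone does not show which allele a library carries.

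The Hsf1 target chaperones rose most widely in the double mutant, and about as many lay above the expected level as did not differ from it by the test. In mNmC without replicate 3, 22 of the 25 were called above wild type, against 9 in mN and 20 in mC. Over all genes the shares were 38.2%, 10.9% and 9.47%, in the same order. The interaction of the 25 had a median of 0.38, against 0.14 over all genes, and 12 were called higher, 2 lower and 11 did not pass. Of all genes 20.0% were higher and 11.3% lower, and as labelled 3.78% and 1.42%. As labelled 4 were called higher (CPR6, CUR1, HCH1 and MBF1) and 0 lower, with 11 higher and 2 lower at an unadjusted p under 0.05 in limma. These 4 calls were lost in 9 to 11 of the 12 fits that leave out 1 library. Upper-quartile scaling gave 8 higher and 4 lower without mNmC replicate 3, and 1 higher and 0 lower as labelled. Of all 6399 genes it gave 1017 higher and 1135 lower without mNmC replicate 3, and 158 and 172 as labelled. On the FPKM scale 21 of the 25 lay above 0.

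**Figure D2:**
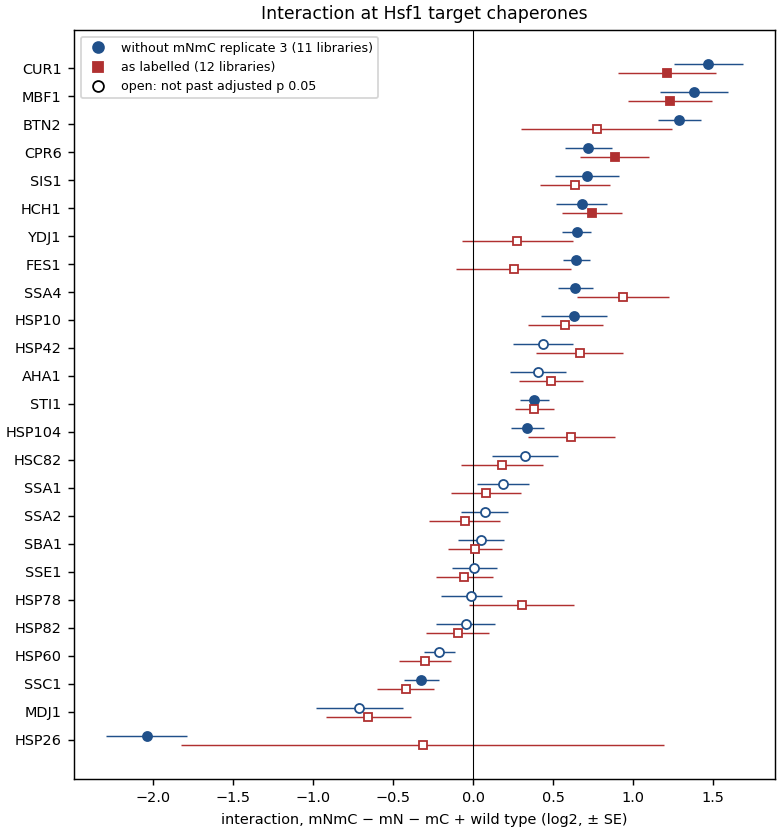
Interaction (horizontal axis, log2, ± SE) of the 25 Hsf1 target chaperones, as labelled (squares) and without mNmC replicate 3 (circles), with filled symbols for adjusted p under 0.05. Without mNmC replicate 3, CUR1, MBF1 and BTN2 lie highest and HSP26 lowest. As labelled, MBF1 and CUR1 lie highest, MDJ1 lies lowest and HSP26 stands at -0.32 with an SE of 1.51.

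Promoters of BTN2, CUR1 and MBF1, which lay above the expected level, are set beside that of HSP82, which lay at it. All 4 are on the list of Hsf1 target chaperones, and all 4 hold the core of the heat shock element that Hsf1 binds. The core was searched as GAANNTTC or TTCNNGAA, which are the same inverted repeats of GAA read in both orders. Windows run from 250 bases before to 50 after the annotated gene start, 5′ to 3′ on the strand of the gene, from the RefSeq R64 sequence, on chromosome VII (plus strand) for BTN2, XVI (plus) for CUR1, XV (minus) for MBF1 and XVI (minus) for HSP82. Capitals mark the core.
BTN2: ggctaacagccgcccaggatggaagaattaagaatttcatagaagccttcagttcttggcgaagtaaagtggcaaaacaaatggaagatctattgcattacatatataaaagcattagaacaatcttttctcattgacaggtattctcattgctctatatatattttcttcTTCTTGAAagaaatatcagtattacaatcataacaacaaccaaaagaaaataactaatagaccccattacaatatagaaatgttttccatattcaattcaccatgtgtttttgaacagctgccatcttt
CUR1: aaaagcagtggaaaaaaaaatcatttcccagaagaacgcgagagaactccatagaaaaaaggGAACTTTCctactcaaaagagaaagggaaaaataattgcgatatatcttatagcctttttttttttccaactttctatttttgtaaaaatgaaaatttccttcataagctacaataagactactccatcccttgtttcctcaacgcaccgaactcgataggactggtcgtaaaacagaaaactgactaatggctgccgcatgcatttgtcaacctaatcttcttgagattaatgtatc
MBF1: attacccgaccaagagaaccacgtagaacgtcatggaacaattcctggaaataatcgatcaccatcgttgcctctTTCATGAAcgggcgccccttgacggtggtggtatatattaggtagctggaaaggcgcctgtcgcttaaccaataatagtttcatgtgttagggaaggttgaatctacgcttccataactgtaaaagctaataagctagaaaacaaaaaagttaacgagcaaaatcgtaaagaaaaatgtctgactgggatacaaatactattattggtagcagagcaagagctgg
HSP82: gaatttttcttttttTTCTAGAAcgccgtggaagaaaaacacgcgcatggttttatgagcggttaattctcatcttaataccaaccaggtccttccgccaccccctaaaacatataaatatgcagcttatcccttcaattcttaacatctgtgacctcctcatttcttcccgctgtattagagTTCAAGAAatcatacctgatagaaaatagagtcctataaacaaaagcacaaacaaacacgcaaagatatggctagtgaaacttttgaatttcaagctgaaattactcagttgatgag
The number of cores was 1 in BTN2, 1 in CUR1, 1 in MBF1 and 2 in HSP82. A core was found in 72.0% of the promoters of the 25 listed chaperone genes and in 22.9% of 5804 promoters of tested genes. The listed genes without a core in this window were SSA4, HSP104, YDJ1 and SIS1, called higher, HSP26 and SSC1, called lower, and MDJ1, which did not pass. Sites farther upstream or with other spacing were not searched, so these genes are not shown to lack a site. The share was 23.9% among genes called higher and 20.1% among genes called lower without mNmC replicate 3, both near that of all promoters. The stress response element of Msn2 and Msn4 (AGGGG or CCCCT) was in 21.9% of all promoters, in 17.3% of those called higher and in 26.8% of those called lower.

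The protein sorting factors CUR1 and BTN2 and the coactivator gene MBF1 had the 3 highest values of this list without mNmC replicate 3. BTN2 (YGR142W), which moves misfolded proteins into deposits, read 63.5, 62.0 and 64.2 FPKM in wild type, 105, 92.3 and 99.1 in mN, 136.5, 168 and 171 in mC and 589.9 and 610.0 in mNmC replicates 1 and 2. The libraries of the 4 strains did not overlap, in the order wild type, mN, mC, mNmC, and mNmC stood 2.45-fold above the expected 245 FPKM. The interaction was 1.29 ± 0.13 (adjusted p = 0.000156), but 0.77 ± 0.47 (adjusted p = 0.358) as labelled. The library labelled mNmC replicate 3 read 205. Its paralog CUR1 (YPR158W) read 38.9, 37.8 and 41.1 FPKM in wild type, 26.0, 34.4 and 39.9 in mN, 41.3, 49.8 and 54.9 in mC, 112 and 116 in mNmC and 66.2 in replicate 3 as labelled. Here the single mutants did not pass the test against wild type, and the interaction of 1.47 ± 0.22 (adjusted p = 0.00108) came with a called rise in mNmC of 1.52 (log2). As labelled it was 1.21 ± 0.30 (adjusted p = 0.0479). MBF1 (YOR298C-A), a transcriptional coactivator, had the same pattern at a far higher level. It read 1224, 1273 and 1279 FPKM in wild type, 788, 1054 and 1182 in mN, 1203, 1469 and 1529 in mC, 2824 and 2905 in mNmC and 2100 in replicate 3 as labelled. Its interaction was 1.38 ± 0.21 (adjusted p = 0.00141) and 1.23 ± 0.26 (adjusted p = 0.0301) as labelled.

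Among the SSA genes of cytosolic Hsp70, SSA4 (YER103W) lay above the expected level and the other 3 did not differ from it by the test. SSA4 is heat-inducible and read 55.2, 58.8 and 55.1 FPKM in wild type, 228, 254.5 and 221 in mN, 159.8, 176.5 and 171 in mC, 1105 and 1063 in mNmC and 2007 in the library labelled replicate 3. The strains did not overlap, and mNmC stood 1.56-fold above the expected 696 FPKM. The interaction of SSA4 was 0.64 ± 0.11 (adjusted p = 0.00235, as labelled 0.94 with adjusted p = 0.0877), a small part of its total change of 4.24 in mNmC. SSA1 (0.19 ± 0.16, adjusted p = 0.402, as labelled 0.08 with adjusted p = 0.859) and SSA2 (0.07 ± 0.15, adjusted p = 0.734, as labelled -0.05 with adjusted p = 0.912), the constitutive Hsp70 genes, did not pass, and nor did the heat-inducible SSA3 (0.12 ± 0.15, adjusted p = 0.58, as labelled 0.65 with adjusted p = 0.464). Reads may be shared between such near-identical paralogs, and the rule for assigning them is unknown here. The Hsp70 partners YDJ1 (0.65 ± 0.09, adjusted p = 0.000908, as labelled 0.28 with adjusted p = 0.677) and SIS1 (0.71 ± 0.20, adjusted p = 0.0226, as labelled 0.64 with adjusted p = 0.119), both J-proteins, and the exchange factor FES1 (0.65 ± 0.09, adjusted p = 0.000663, as labelled 0.25 with adjusted p = 0.717) were higher, while the exchange factor SSE1 did not pass (0.01 ± 0.14, adjusted p = 0.969, as labelled -0.05 with adjusted p = 0.883). As labelled, none of SSA4, YDJ1, SIS1 and FES1 passed, and SIS1 also lost its call without wild type replicate 2 and without either remaining mNmC library. Of the 16 tested genes of cytosolic Hsp70 and its partners, 5 were higher and 1 lower, and as labelled 0 were called, with 2 higher and 0 lower at an unadjusted p under 0.05 in limma. Over all genes the shares were 20.0% higher and 11.3% lower, and as labelled 3.78% and 1.42%.

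HSP82 lay within its error of the expected level, while some Hsp90 cochaperones lay above theirs. HSP82 (YPL240C), the heat-inducible Hsp90, read 143, 156 and 149 FPKM in wild type, 346, 257 and 238 in mN, 456, 508 and 516 in mC, 878 and 887 in mNmC and 796 in replicate 3 as labelled. The strains did not overlap, and the 2.56 change in mNmC equalled the sum of 0.89 and 1.72 to within the error, with an interaction of -0.05 ± 0.18 (adjusted p = 0.862, as labelled -0.10 with adjusted p = 0.814). On the FPKM scale the same gene lay 257.9 FPKM above the sum of levels. HSC82, the constitutive Hsp90, did not pass (0.33 ± 0.21, adjusted p = 0.259, as labelled 0.18 with adjusted p = 0.716). The cochaperones CPR6 (0.72 ± 0.15, adjusted p = 0.00565), a prolyl isomerase, and HCH1 (0.68 ± 0.16, adjusted p = 0.0109), an activator of the Hsp90 ATPase, were higher in both fits, as labelled at 0.88 ± 0.22 (adjusted p = 0.0449) and 0.74 ± 0.19 (adjusted p = 0.0484). STI1, which links Hsp70 to Hsp90, was higher by little (0.38 ± 0.09, adjusted p = 0.0112, as labelled 0.38 with adjusted p = 0.0984), and AHA1 (0.40 ± 0.18, adjusted p = 0.106, as labelled 0.49 with adjusted p = 0.175) and SBA1 (0.05 ± 0.14, adjusted p = 0.818, as labelled 0.01 with adjusted p = 0.977) did not pass. HCH1 and STI1 lost their calls with upper-quartile scaling, and HCH1 also once the length trend was removed, with values down to 0.18. TAH1, a small Hsp90 cochaperone, lay far above the expected level (2.05 ± 0.54, adjusted p = 0.0173, as labelled 1.53 with adjusted p = 0.199), but mN replicate 1 read 33.1 FPKM against 104 and 106 in its replicates. Without mNmC replicate 2 TAH1 lost its call. Over the 14 Hsp90 and cochaperone genes, 5 were higher and 1 lower, against 20.0% and 11.3% of all genes. As labelled 2 were higher and 0 lower, against 3.78% and 1.42% of all genes. Without mNmC replicate 3, upper-quartile scaling gave 3 higher and 1 lower of the 14, and 1017 higher and 1135 lower of all 6399 genes.

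The disaggregase and the small heat shock proteins split. HSP104, the disaggregase, was higher by 0.34 ± 0.10 (adjusted p = 0.0316, as labelled 0.61 with adjusted p = 0.21), a call that 10 of the 11 fits without a further library ended. HSP42 did not pass (0.44 ± 0.19, adjusted p = 0.0991, as labelled 0.66 with adjusted p = 0.179). HSP26 (YBR072W), a small heat shock protein also driven by Msn2 and Msn4, read 158, 176 and 172 FPKM in wild type, 290.1, 453 and 428 in mN, 359, 452 and 498 in mC and 252 and 225 in mNmC, with 8599 in replicate 3 as labelled. Both single mutants lay above wild type in every library, and mNmC replicates 1 and 2 lay between wild type and the single mutants. The interaction of HSP26 was -2.04 ± 0.25 (adjusted p = 0.000443), and -0.32 ± 1.51 (adjusted p = 0.921) as labelled. Among mitochondrial chaperones, HSP10 was higher (0.63 ± 0.21, adjusted p = 0.0424, as labelled 0.58 with adjusted p = 0.169) and the Hsp70 gene SSC1 lower (-0.32 ± 0.11, adjusted p = 0.0472, as labelled -0.42 with adjusted p = 0.191), while HSP60 (-0.21 ± 0.10, adjusted p = 0.123, as labelled -0.30 with adjusted p = 0.303), MDJ1 (-0.71 ± 0.27, adjusted p = 0.0716, as labelled -0.65 with adjusted p = 0.173) and HSP78 (-0.01 ± 0.19, adjusted p = 0.975, as labelled 0.30 with adjusted p = 0.627) did not pass. The calls of HSP10 and SSC1 were each lost in more than 5 of the 11 fits without a further library. In all, 2 of 11 mitochondrial chaperone genes were higher and 1 lower, close to the 20.0% and 11.3% of all genes, and as labelled 0 were called, with 2 higher and 2 lower at an unadjusted p under 0.05 in limma. Upper-quartile scaling turned this balance to 1 higher and 5 lower, and gave 1017 higher and 1135 lower of all 6399 genes. Of 11 disaggregation and sorting genes 4 were higher and 1 lower, and as labelled 1 and 0.

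**Figure D3:**
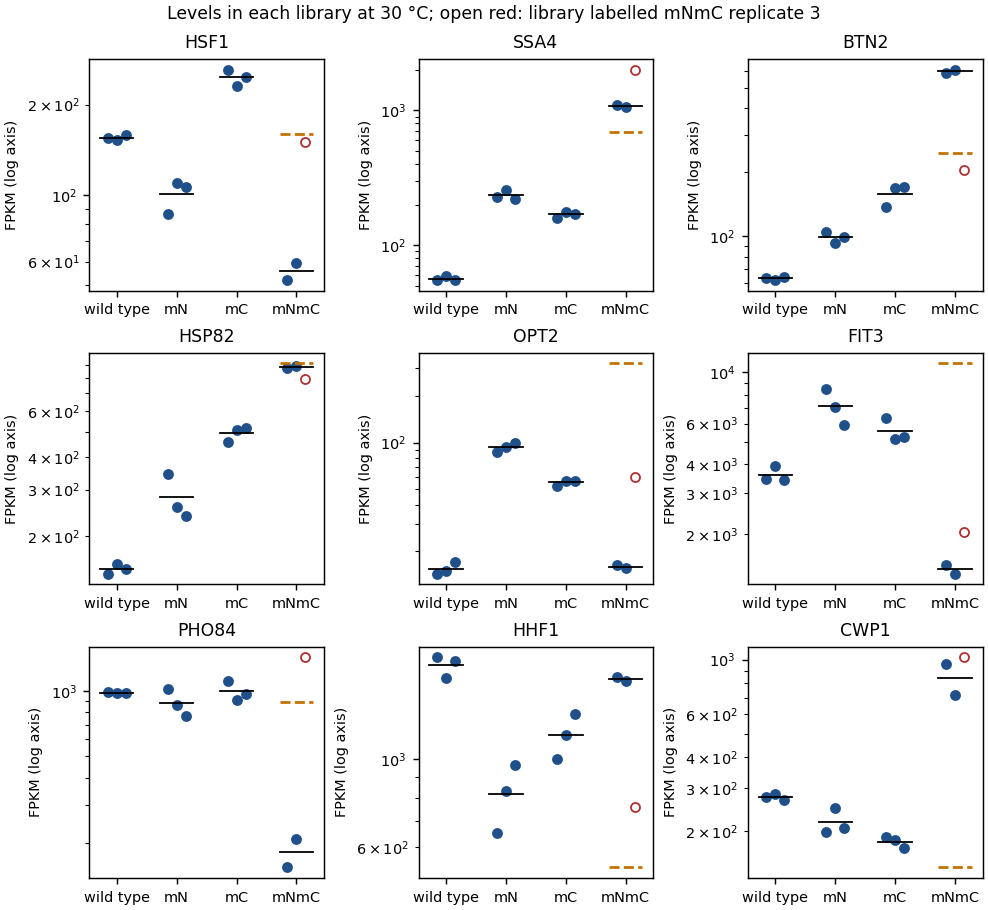
FPKM (log axis) of 9 genes in each of the 12 libraries at 30 °C. Blue points are libraries, the open red point is the library labelled mNmC replicate 3, black bars are group means (without that library in mNmC), and the dashed orange bar is the level expected from the single mutants: HSP82 lies on it, SSA4, BTN2, HHF1 and CWP1 above it, and HSF1, OPT2, FIT3 and PHO84 below it.

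Iron uptake genes lay below the expected level. They are driven by Aft1, the activator of the response to low iron. Of the 23 tested, 12 were called above wild type in mN and 9 in mC, against 10.9% and 9.47% of all genes. In mNmC without replicate 3, 13 of the 23 were called below wild type, against 6.75% of all genes. Against the expected level, 19 were lower and 1 higher without mNmC replicate 3, with a median of -0.92, against 11.3% lower and 20.0% higher over all genes. As labelled 9 were lower and 1 higher, against 1.42% and 3.78% of all genes. The higher gene in both was HMX1, a heme oxygenase (0.84 ± 0.20, adjusted p = 0.0112, as labelled 0.89 with adjusted p = 0.0313), named after its values were seen. The counts of 19 lower genes also held with upper-quartile scaling and after a trend with gene length was removed. In 7 of the 23, each mutation moved the gene in opposite called directions with and without the other, against 1.81% of all genes.

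FIT3 (YOR383C), a cell wall mannoprotein that retains iron-bound siderophores, read 3457, 3937 and 3431 FPKM in wild type, 8432, 7073 and 5919 in mN, 6318, 5162 and 5256 in mC, 1477 and 1353 in mNmC and 2037 in the library labelled replicate 3. Both single mutants lay above wild type and all 3 mNmC libraries below it, with no overlap. The mNmC level without replicate 3 was 7.71-fold below the expected 10900 FPKM. The interaction was -2.95 ± 0.20 (adjusted p = 1.25e-05), and -2.77 ± 0.28 (adjusted p = 0.000593) as labelled. Its paralogs FIT2 (-2.75 ± 0.19, adjusted p = 1.25e-05, as labelled -2.18 with adjusted p = 0.0449) and FIT1 (-2.91 ± 0.40, adjusted p = 0.000722, as labelled -2.67 with adjusted p = 0.00803) followed. The as-labelled call of FIT2 was lost in 11 of the 12 fits that leave out 1 library, and that of FIT1 in 0. FIT1 in mN replicate 1 stood at 220.4 FPKM against 105 and 90.1 in the other two. ARN1 (YHL040C), a siderophore transporter, read 194, 216 and 217 FPKM in wild type, 602, 539 and 499 in mN, 401, 328 and 336 in mC, 129.7 and 135 in mNmC and 274.5 in replicate 3 as labelled. Replicates 1 and 2 of mNmC lay below every wild-type library, and the single mutants above. Its interaction was -2.79 ± 0.15 (adjusted p = 3.72e-06), and -2.44 ± 0.34 (adjusted p = 0.00489) as labelled. The other siderophore transporters ARN2, SIT1 and ENB1 had -2.15, -1.94 and -1.52, and the reductive uptake pair FET3, a ferroxidase, and FTR1, its permease, had -1.84 and -1.13, all called lower, and all but ENB1 also as labelled. Members that did not pass were ATX1 (0.12), FRE4 (0.32) and ISU1 (0.80).

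The promoter of FIT3, the gene of this list with the lowest value, is shown with the core letters of Aft1 sites in capitals. The window is again 250 bases before to 50 after the gene start, on chromosome XV (minus strand) of R64, and the letters searched were CACCC or GGGTG, chosen after the list's values were known.
FIT3: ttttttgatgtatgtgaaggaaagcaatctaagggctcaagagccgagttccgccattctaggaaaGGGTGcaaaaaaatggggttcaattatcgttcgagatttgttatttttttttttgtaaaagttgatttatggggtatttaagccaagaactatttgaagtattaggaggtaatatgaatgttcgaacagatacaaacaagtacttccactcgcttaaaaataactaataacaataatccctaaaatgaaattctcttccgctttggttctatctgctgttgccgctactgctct
These letters were in 69.6% of the 23 promoters of the Aft1 list, in 24.7% of genes called lower without mNmC replicate 3 and in 19.9% of all promoters.

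Phosphate starvation genes also lay below the expected level, with a different course in mN. Many of them are driven by Pho4, and they serve phosphate uptake, its release and its storage as polyphosphate. Of 18 tested, 12 were lower and 1 higher without mNmC replicate 3, against 11.3% and 20.0% of all genes, with a list median of -0.69. As labelled 1 was lower (VTC2) and 0 higher, against 1.42% and 3.78% of all genes. At an unadjusted p under 0.05 in limma, 4 of the 18 were lower and 1 higher as labelled. Unlike the iron genes, 6 of the 18 were called below wild type in mN and 1 above, against 4.47% and 10.9% of all genes. None of the 18 met the strict reversal, near the 1.81% of all genes that met it. PHO84 (YML123C), the high-affinity transporter, read 982, 972 and 974 FPKM in wild type, 1018, 856 and 763 in mN, 1105, 904 and 966 in mC and 155 and 210.5 in mNmC, with 1426 in replicate 3 as labelled. The single mutants overlapped wild type, mNmC replicates 1 and 2 lay below every other library, and replicate 3 as labelled above. The interaction was -2.28 ± 0.20 (adjusted p = 6.75e-05), and -1.29 ± 0.88 (adjusted p = 0.417) as labelled. PHO12 (YHR215W), an acid phosphatase, read 150.5, 155 and 157 FPKM in wild type, 96.0, 86.0 and 87.0 in mN, 131, 120.2 and 123 in mC, 9.35 and 11.4 in mNmC and 39.96 in replicate 3 as labelled. Here each strain lay below wild type, mNmC lowest, and the interaction was -2.69 ± 0.12 (adjusted p = 1.85e-06, as labelled -2.08 with adjusted p = 0.0556). PHO12 is nearly identical to PHO11 (-1.55), so their reads may be shared. The sodium-phosphate cotransporter PHO89 (-2.08 ± 0.36, adjusted p = 0.00249, as labelled -1.15 with adjusted p = 0.47) and SPL2 (-1.84 ± 0.36, adjusted p = 0.0047, as labelled -0.68 with adjusted p = 0.744), a regulator of low-affinity uptake, were lower, as were the polyphosphate synthase genes VTC1 to VTC4 (-0.73 to -1.57). The Pho4 site CACGTG was in 22.2% of the 18 promoters and in 2.93% of all, letters also chosen after values were known. Those with a site were PHO86, SPL2, VTC1 and VTC4, and the windows of PHO84, PHO12 and PHO89 held 0.

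Genes of the unfolded protein response, which handles misfolded protein in the endoplasmic reticulum, were more often called above wild type in the single mutants than in the double mutant. Of 14 tested, 10 were called above wild type in mN, 8 in mC and 2 in mNmC without replicate 3. The shares of all genes were 10.9%, 9.47% and 38.2%, in the same order. The interaction of the 14 had a median of -0.89, with 10 lower and 1 higher (ERO1, 0.47), against 11.3% and 20.0% of all genes. Of the 14, 7 met the strict reversal, against 1.81% of all genes. As labelled 0 were called, with 1 higher and 0 lower at an unadjusted p under 0.05 in limma. ULI1 (YFR026C), induced by this response, read 10.1, 9.43 and 11.6 FPKM in wild type, 16.1, 23.8 and 18.4 in mN, 22.4, 22.8 and 22.3 in mC and 10.3 and 7.87 in mNmC, with 45.4 in replicate 3 as labelled. The single mutants lay above wild type in every library, and mNmC replicates 1 and 2 overlapped it, for an interaction of -2.07 ± 0.21 (adjusted p = 0.000129, as labelled -1.33 with adjusted p = 0.263). HAC1 (YFL031W), the transcription factor of the response, read 345, 347 and 327.5 FPKM in wild type, 561, 429 and 402 in mN, 413, 375 and 384 in mC, 192 and 167 in mNmC and 1008 in replicate 3 as labelled. Replicates 1 and 2 of mNmC lay below and replicate 3 above all other libraries, and the interaction was -1.55 ± 0.17 (adjusted p = 0.000252, as labelled -0.72 with adjusted p = 0.604). HAC1 mRNA acts only once spliced, which these values do not show. The disulfide isomerase EUG1 (-1.22 ± 0.10, adjusted p = 4.43e-05, as labelled -0.70 with adjusted p = 0.403), the exchange factor SIL1 (-1.27 ± 0.18, adjusted p = 0.001, as labelled -0.45 with adjusted p = 0.756) and KAR2 (-0.84 ± 0.25, adjusted p = 0.0279, as labelled -0.34 with adjusted p = 0.73), the Hsp70 of the endoplasmic reticulum, were lower too.

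General stress and storage carbohydrate genes were called below the expected level only where the library labelled mNmC replicate 3 was left out. Of 26 Msn2/4 target genes, 13 were lower and 1 higher (HSP12), against 11.3% and 20.0% of all genes, with a list median of -0.61. As labelled 0 of the 26 were called, with 1 higher and 0 lower at an unadjusted p under 0.05 in limma and a median of 0.33. Above wild type, 17 of the 26 were called in mN, 14 in mC and 15 in mNmC, and 2 were called below it in mNmC. The shares of all genes were 10.9%, 9.47% and 38.2% above and 6.75% below, in the same order. PGM2 (YMR105C), phosphoglucomutase, read 51.8, 61.8 and 58.5 FPKM in wild type, 102.5, 117 and 116 in mN, 104, 121 and 127 in mC, 71.7 and 61.8 in mNmC and 1221 in replicate 3 as labelled. The last value lies far above every other, and without it the interaction was -1.76 ± 0.15 (adjusted p = 6.51e-05, as labelled -0.37 with adjusted p = 0.883). HSP12 (YFL014W), a membrane-associated stress protein, went the other way, with 58.3, 55.2 and 45.2 FPKM in wild type, 39.9, 86.7 and 144 in mN, 78.4, 87.1 and 83.6 in mC and 509 and 740.1 in mNmC, against 15100 in replicate 3 as labelled. All mNmC libraries lay above every other, the interaction was 2.29 ± 0.54 (adjusted p = 0.0112, as labelled 3.83 with adjusted p = 0.141), and without mNmC replicate 2 its adjusted p rose to 0.0608. Of 17 trehalose and glycogen genes, 9 were lower and 1 higher, against the same 11.3% and 20.0%. As labelled 0 of the 17 were called, with 1 higher and 0 lower at an unadjusted p under 0.05 in limma. GSY1 (YFR015C), a glycogen synthase, had the lowest value of them, -2.32 ± 0.13 (adjusted p = 5.22e-06, as labelled -1.39 with adjusted p = 0.336), from 27.6, 30.5 and 28.4 FPKM in wild type, 38.9, 35.4 and 34.0 in mN, 33.4, 35.0 and 38.3 in mC, 8.85 and 7.35 in mNmC and 61.4 in replicate 3 as labelled.

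Sugar breakdown gave 9 lower and 0 higher of 18 glycolysis genes, with a median of -0.45, against 11.3% lower and 20.0% higher over all genes. As labelled 1 was lower and 0 higher, against 1.42% and 3.78% of all genes, with a list median of -0.35. PDC1 (YLR044C), pyruvate decarboxylase, was the gene of this list called in both fits. It read 9076, 9172 and 8650 FPKM in wild type, 11800, 10880 and 10370 in mN, 10370, 9723 and 9131 in mC, and 5557 and 5032 in mNmC with 4983 in replicate 3 as labelled. All 3 mNmC libraries lay below every other, and the interaction was -1.18 ± 0.13 (adjusted p = 0.000219) and -1.20 ± 0.22 (adjusted p = 0.0146) as labelled. HXT4 (YHR092C), a hexose transporter, read 154, 171 and 167 FPKM in wild type, 621, 462 and 433 in mN, 271, 261.5 and 273 in mC, and 296 and 159 in mNmC with 189 in replicate 3 as labelled. It was highest in mN, and mNmC replicates 1 and 2 reached from the wild-type range to above mC, for -1.91 ± 0.30 (adjusted p = 0.00164) and -1.97 ± 0.29 (adjusted p = 0.0066) as labelled. The near-identical transporters HXT6 (-0.86 ± 0.26, adjusted p = 0.0289, as labelled -0.20 with adjusted p = 0.875) and HXT7 (1.27 ± 0.24, adjusted p = 0.00387, as labelled 1.68 with adjusted p = 0.0471) lay on opposite sides, so the split of their reads matters here. Of 18 hexose transporter and sensor genes, 3 were lower and 1 higher, and as labelled 1 and 1.

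The lowest interaction of all called genes was that of OPT2 (YPR194C), an oligopeptide transporter. It read 14.4, 14.9 and 17.1 FPKM in wild type, 86.8, 94.0 and 99.0 in mN, 52.6, 56.8 and 57.0 in mC, 16.2 and 15.7 in mNmC and 59.9 in replicate 3 as labelled. The single mutants lay far above wild type without overlap, and mNmC replicates 1 and 2 within its range, 20.2-fold below the expected 322 FPKM. The interaction was -4.25 ± 0.12 (adjusted p = 3.95e-08), and -3.64 ± 0.54 (adjusted p = 0.0066) as labelled. DAN1 (YJR150C), a cell wall mannoprotein of anaerobic cells, read 74.3, 88.3 and 75.9 FPKM in wild type, 141, 185 and 141.5 in mN, 129.7, 106.5 and 109 in mC, 19.5 and 19.6 in mNmC and 64.9 in replicate 3 as labelled. It lay above wild type in every single mutant library and below it in every mNmC library, for -3.44 ± 0.18 (adjusted p = 3.72e-06) and -2.88 ± 0.52 (adjusted p = 0.0146) as labelled. Its relatives TIR4 (-2.44 ± 0.28, adjusted p = 0.000264, as labelled -1.75 with adjusted p = 0.143) and TIR1 (-1.98 ± 0.39, adjusted p = 0.00457, as labelled -1.92 with adjusted p = 0.0211) were lower as well. In nucleotide supply, HUG1 (-2.78 ± 0.46, adjusted p = 0.00194, as labelled -2.33 with adjusted p = 0.0451), an inhibitor of ribonucleotide reductase, and RNR3 (-1.86 ± 0.12, adjusted p = 1.11e-05, as labelled -1.39 with adjusted p = 0.0857), a subunit of that enzyme, were lower. The transfer RNA gene tE(UUC)K (-2.98 ± 0.60, adjusted p = 0.00539, as labelled -2.82 with adjusted p = 0.0256) was high in mN alone, at 54.3, 154 and 149 FPKM, and its reads may be shared with identical copies.

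At the other end, 5 genes of the cell surface and its signalling lay above the expected level in both fits, while the cell wall list as a whole did not lean that way. That list, whose member MLP1 is a nuclear pore protein gene that shares an older name with KDX1, had 7 higher and 5 lower of 21 with a median of 0.03, and 2 higher and 3 lower as labelled. Over all genes 20.0% were higher and 11.3% lower, and as labelled 3.78% and 1.42%. CWP1 (YKL096W), a cell wall mannoprotein, read 276, 284.5 and 268 FPKM in wild type, 199, 249 and 206 in mN, 190.4, 185 and 171 in mC, 960.2 and 719 in mNmC and 1024 in replicate 3 as labelled. Each single mutant library lay below wild type and each mNmC library above it, 5.82-fold above the expected 143 FPKM without replicate 3. The interaction was 2.53 ± 0.17 (adjusted p = 1.25e-05) and 2.63 ± 0.20 (adjusted p = 8.86e-05) as labelled. SLT2 (YHR030C), the kinase of the cell wall integrity pathway, had 1.60 ± 0.13 (adjusted p = 4.32e-05) and 1.64 ± 0.15 (adjusted p = 0.000228), and its paralog KDX1 1.87 ± 0.14 (adjusted p = 2.54e-05) and 1.60 ± 0.27 (adjusted p = 0.0119). The mannosyltransferase gene KTR2 had 1.89 ± 0.10 (adjusted p = 3.72e-06) and 1.87 ± 0.11 (adjusted p = 3.59e-05), and the membrane protein gene PRM5 had 1.21 ± 0.14 (adjusted p = 0.000252) and 1.28 ± 0.16 (adjusted p = 0.00333). In the single mutants the changes of these 5 genes lay between -0.60 and 0.20 (log2). Of these 5, CWP1 and SLT2 are members of the list, and the others were named for their values.

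NCE103 (YNL036W), carbonic anhydrase, had the highest interaction without mNmC replicate 3 of the named genes called in both fits, and as labelled CPP3 lay above it. It read 91.8, 78.6 and 89.0 FPKM in wild type, 59.2, 97.6 and 152 in mN, 73.5, 78.0 and 62.4 in mC, 400.0 and 848 in mNmC and 739 in replicate 3 as labelled. The 3 mNmC libraries lay above all others, with spread within mN and mNmC, for 2.87 ± 0.49 (adjusted p = 0.00247) and 2.98 ± 0.47 (adjusted p = 0.00742) as labelled. CPP3 (YDR034W-B) and DPA10 (YLR307C-A), both short genes, had 2.62 ± 0.35 (adjusted p = 0.000689, as labelled 3.26 with adjusted p = 0.0239) and 2.50 ± 0.25 (adjusted p = 0.000126, as labelled 2.89 with adjusted p = 0.00525). SNZ1 (YMR096W), of vitamin B6 synthesis, read 35.6, 39.6 and 40.9 FPKM in wild type, 43.6, 52.8 and 61.5 in mN, 52.2, 50.2 and 46.4 in mC and 195 and 310.5 in mNmC, with 71.5 in replicate 3 as labelled. Its interaction was 1.87 ± 0.25 (adjusted p = 0.000642, as labelled 1.28 with adjusted p = 0.204), and 7 of 19 vitamin B6 and thiamine genes were higher and 1 lower (THI7), as labelled 2 and 1. In respiration, CYC1, cytochrome c, had 2.38 ± 0.33 (adjusted p = 0.000759, as labelled 1.89 with adjusted p = 0.0685), the TCA cycle gene ACO1, aconitase, 1.05 ± 0.11 (adjusted p = 0.000143, as labelled 0.82 with adjusted p = 0.0769) and the oxidase subunit COX12 1.18 ± 0.30 (adjusted p = 0.0159, as labelled 1.30 with adjusted p = 0.0386), while ATP1 and ATP2, of the ATP synthase, stood at -0.87 and -0.64, QCR6, of the cytochrome bc1 complex, at -0.79 and SDH1, of succinate dehydrogenase, at -0.67, all called lower. The list gave 7 higher and 4 lower of 38, near the 20.0% and 11.3% of all genes, and as labelled 3 and 0. COX12 lost its call without mNmC replicate 2. As labelled it lost its call in 9 of the 12 fits that leave out 1 library and once the length trend was removed. In mN replicate 1 COX12 read 77.6 FPKM, against 129.9 and 138.9 in mN replicates 2 and 3. Among stable noncoding RNAs, which lack the poly(A) tails used to select RNA here, SCR1 (1.90 ± 0.16, adjusted p = 5.95e-05, as labelled 2.59 with adjusted p = 0.0409), RPR1 (1.81 ± 0.19, adjusted p = 0.000164, as labelled 2.13 with adjusted p = 0.00742) and NME1 (0.73 ± 0.23, adjusted p = 0.0342, as labelled 1.40 with adjusted p = 0.207) were higher, 3 of 5 tested, and as labelled 2 of 5. NME1 lost its call in 6 of the 11 fits without a further library and with upper-quartile scaling.

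Growth genes lay above the expected level without mNmC replicate 3. Over all genes 20.0% were higher and 11.3% lower, and as labelled 3.78% and 1.42%. Of 138 ribosomal protein genes, 92 were higher and 4 lower with a median of 0.77. As labelled 0 of the 138 were called, with 5 higher and 2 lower at an unadjusted p under 0.05 in limma. Below wild type, 90 of the 138 were called in mN and 42 in mC, against 16 in mNmC without replicate 3. The shares of all genes were 4.47%, 1.91% and 6.75%, in the same order. With upper-quartile scaling 83 of the 138 were higher and 5 lower without mNmC replicate 3, and 1017 and 1135 of all 6399 genes. RPL28 (YGL103W) read 66.4, 63.3 and 76.9 FPKM in wild type, 25.3, 42.7 and 45.5 in mN, 31.9, 39.0 and 42.6 in mC, 85.8 and 102 in mNmC and 33.5 in replicate 3 as labelled. It lay below wild type in every single mutant library and above it in mNmC replicates 1 and 2, for 2.18 ± 0.30 (adjusted p = 0.000759, as labelled 1.69 with adjusted p = 0.0826). RPL35A gave the highest value of all named genes, 3.97 ± 0.78 (adjusted p = 0.00486, as labelled 2.59 with adjusted p = 0.296), but its wild-type libraries read 1712, 466 and 2305 FPKM. Of 54 ribosome biogenesis genes, 32 were higher and 1 lower (FPR3), with a median of 0.51, led by MAK16 (1.26 ± 0.21, adjusted p = 0.00189, as labelled 0.69 with adjusted p = 0.482) and NSR1 (1.16 ± 0.17, adjusted p = 0.000929, as labelled 0.82 with adjusted p = 0.187), and as labelled 1 was higher and 0 lower. Of 10 histone genes, 9 were higher and 0 lower, and as labelled 1 was higher (HHF2). HHF1 (YBR009C), a histone H4 gene, read 1814, 1610 and 1777 FPKM in wild type, 649.6, 833 and 969.9 in mN, 1001, 1150 and 1300 in mC, 1619 and 1578 in mNmC and 757 in replicate 3 as labelled. The single mutants lay below wild type without overlap and mNmC replicates 1 and 2 near its lower end, for 1.58 ± 0.21 (adjusted p = 0.000677, as labelled 1.22 with adjusted p = 0.0923).

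Gene length moved with these results. The median interaction was 0.56 in 887 genes under 500 bases, 0.31 in 1444 genes of 500 to 1000, 0.08 in 2191 genes of 1000 to 2000 and -0.09 in 1296 genes over 2000. Of the genes under 500 bases 33.7% were called higher and 3.49% lower, and of those over 2000 bases 6.87% and 20.9%. Within libraries, the median log2 level of genes under 500 bases exceeded that of genes over 2000 by 1.44 to 1.54 in wild type, by 1.34 and 1.38 in mN replicates 2 and 3, by 0.84 in mN replicate 1, by 1.25 to 1.40 in mC and by 1.76 and 1.77 in mNmC replicates 1 and 2. Without mN replicate 1 as well, the medians of the 4 classes became 0.41, 0.19, 0.03 and -0.10. After the trend with length was removed from each library, 48 of the 138 ribosomal protein genes were higher and 7 lower, 3 of 10 histone genes were higher and 0 lower, and 35 of 54 ribosome biogenesis genes were higher and 2 lower. The median exon length was 433.5 bases in the ribosomal protein genes and 399 in the histone genes, against 1539 in the ribosome biogenesis genes. Over all genes with a length the same step gave 978 higher and 980 lower without mNmC replicate 3, and 163 higher and 109 lower as labelled.

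**Figure D4:**
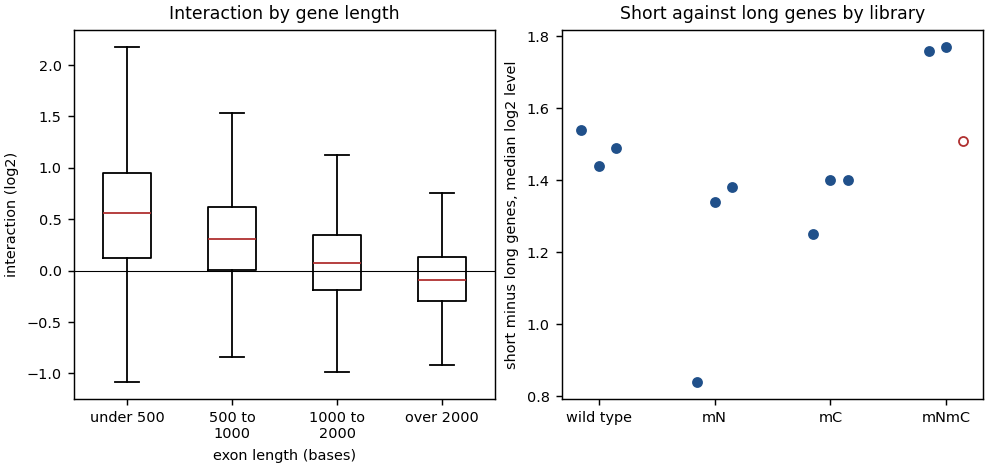
Left, interaction without mNmC replicate 3 (vertical axis, log2) in 4 classes of exon length, with the median in red, quartiles as boxes and whiskers to the farthest gene within 1.5 times the box. Right, median log2(FPKM + 1) of genes under 500 bases minus that of genes over 2000 in each library, with the library labelled mNmC replicate 3 as an open red point: mN replicate 1 lies lowest and mNmC replicates 1 and 2 highest.

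Other lists had members on both sides, against 20.0% higher and 11.3% lower over all genes, and 3.78% and 1.42% as labelled. Regulators of heat and stress had 3 higher and 5 lower of 13, with HAC1 and HSF1 lowest, and 0 called as labelled, with 2 higher and 1 lower at an unadjusted p under 0.05 in limma. Of 32 proteasome genes 3 were higher and 2 lower, the latter RPN11 (-0.94 ± 0.10, adjusted p = 0.000164, as labelled -0.71 with adjusted p = 0.115) and RPN12 (-0.84 ± 0.11, adjusted p = 0.000455, as labelled -0.56 with adjusted p = 0.262), both of the regulatory particle, and 0 were called as labelled, with 1 higher and 1 lower at an unadjusted p under 0.05 in limma. Of 23 sulfur and methionine genes 4 were higher, led by the adenylylsulfate kinase gene MET14 (1.02 ± 0.16, adjusted p = 0.00148, as labelled 1.12 with adjusted p = 0.00958), and 6 lower, led by the sulfite reductase gene MET10 (-1.04 ± 0.12, adjusted p = 0.000319, as labelled -0.68 with adjusted p = 0.267), and as labelled 3 were higher and 0 lower. Branched-chain amino acid genes had 3 higher and 2 lower of 12, the lowest being the aminotransferase gene BAT2 (-1.01 ± 0.09, adjusted p = 5.71e-05, as labelled -0.86 with adjusted p = 0.0277), and as labelled 0 were higher and 1 lower. Counts were 4 higher and 3 lower of 37 for Gcn4 targets, 2 and 6 of 26 for ergosterol, 1 and 3 of 20 for Yap1 targets, 2 and 3 of 21 for pheromone and mating type and 1 and 3 of 15 for G1 cyclins and DNA synthesis. As labelled the counts of these 5 lists were 1 and 0, 0 and 0, 0 and 0, 1 and 0, and 0 and 1, in the same order. At an unadjusted p under 0.05 in limma, ergosterol genes as labelled had 3 higher and 5 lower and Yap1 targets 0 and 0. For the selection markers it was 1 higher (TRP1) and 3 lower of 8, as labelled 0 and 0, with 1 higher and 3 lower at an unadjusted p under 0.05 in limma. HIS3 stood at 497, 496 and 438 FPKM in wild type, 181, 318 and 296 in mN, 612, 631 and 592 in mC and 194.5 and 199 in mNmC, with 442.8 in replicate 3 as labelled. Its interaction was -0.75 ± 0.26 (adjusted p = 0.0518, as labelled -0.36 with adjusted p = 0.656). HIS3, like HSF1, was low in mN, high in mC and low in mNmC replicates 1 and 2. The sources used here do not say whether HIS3 marked the alleles.

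**Figure D5:**
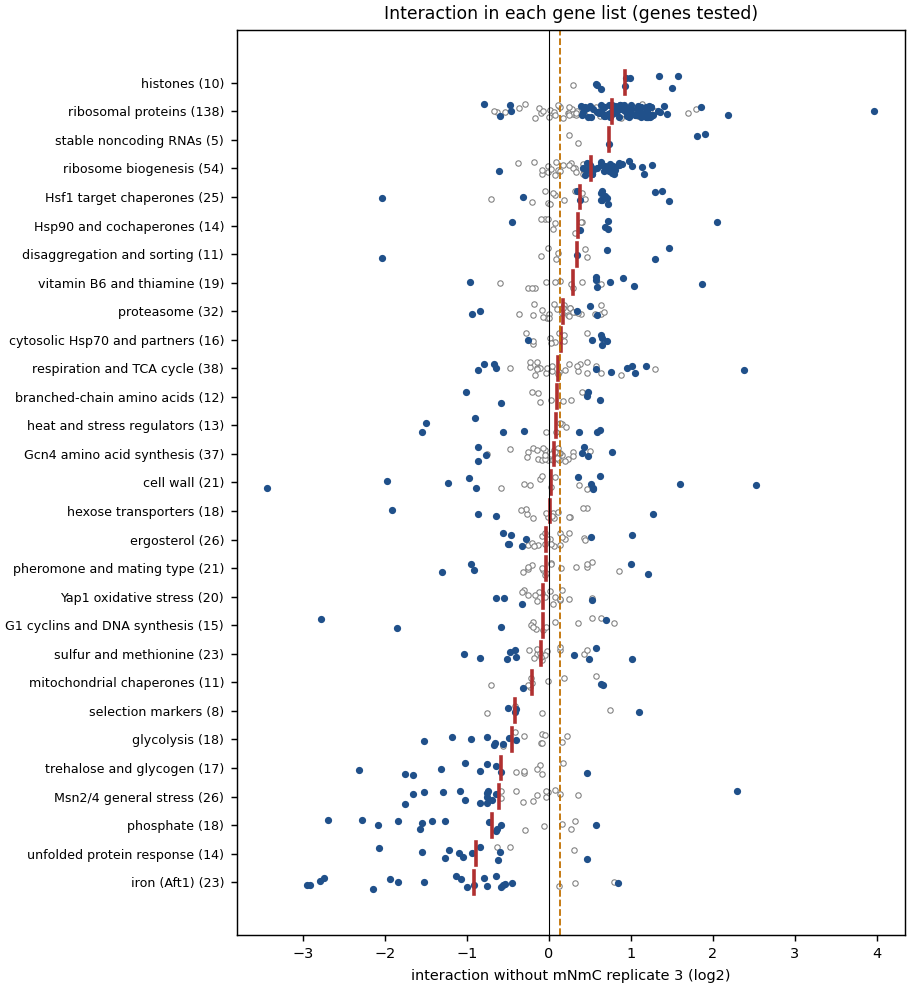
Interaction without mNmC replicate 3 (horizontal axis, log2) of each tested gene in 29 lists, with the number tested in brackets. Blue points are called genes, open points are not, red bars are list medians and the dashed line is the median of all genes at 0.14: histones and ribosomal proteins have the highest medians at 0.93 and 0.77, and iron and unfolded protein response genes the lowest at -0.92 and -0.89.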

How the data were processed

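RNA was extracted with hot phenol and selected on oligo(dT) beads, per the labels' protocols. HTSeq 0.6.1, TopHat2 2.0.12 and Bowtie2 2.2.3 were used, per the submitters' processing notes. The sources used here give no genome build, strand setting or rule for reads shared by paralogs. The authors deposited 1 table of FPKM values for 7126 genes, with 0 columns that match no sample. From 99.2% to 99.3% of values were whole multiples of 1 read per gene length, within 0.01 read, which gave the reads per library.

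Genes that reached 1 FPKM in 3 or more libraries were tested on log2(FPKM + 1) with limma 3.58.1 in R 4.3.3 (moderated test, variance trend), and Benjamini-Hochberg adjustment ran over all 6399. Fold changes on this scale understate those of low genes. Only the 12 libraries at 30 °C entered, or 11 without mNmC replicate 3, with the 37 °C group left out. The test was tried on simulated data with independent noise in each library. No exchanged library, length trend of the interaction or shift of scaling was simulated, so the trial does not bear on these. Members and lists were chosen with earlier results of these data known. Named genes are HSF1, the 12 highest and 12 lowest called genes averaging 10 FPKM or more, the 5 highest and 5 lowest as labelled, all Hsf1 target chaperones and up to 4 members of every other list. Other list members named were chosen after their values were seen. Alternatives were upper-quartile scaling, no variance trend, other filters, a pseudocount of 0.1, a replicate block, all libraries, each library left out and, added after the data were seen, removal of the trend with exon length. Sequences and lengths are from RefSeq R64, which matched 6079 identifiers.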

Additional observations from a re-analysis of the deposited data

Results flagged for a closer look

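The mutation of one Hsp70 site had a different effect with the other site intact and with it mutated, by the test of the interaction itself, in 242 genes higher and 91 lower as labelled, and in 1282 higher and 725 lower without mNmC replicate 3. In 6 of the genes named for extreme values each mutation moreover moved the gene in opposite called directions with and without the other. OPT2 had an interaction of -4.25, DAN1 of -3.44, FIT3 of -2.95, ARN1 of -2.79 and FIT2 of -2.75, and RPL28 was the named gene on the other side at 2.18. All 6 values are without mNmC replicate 3, and RPL28 did not pass as labelled (adjusted p = 0.0826). The as-labelled call of FIT2 was lost in 11 of the 12 fits that leave out 1 library. That of DAN1 was lost in 2, and those of OPT2, FIT3 and ARN1 in 0.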

How the results depend on the processing

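As labelled, upper-quartile scaling gave 158 higher and 172 lower, and without mNmC replicate 3 it gave 1135 lower. Leaving out 1 library at a time gave 55 to 1282 higher and 21 to 725 lower as labelled, the highest being without mNmC replicate 3, and every library except mN replicate 1 moved a count by over 1.5 times. Without mNmC replicate 3, leaving out 1 more library gave 623 to 1617 higher, with 623 without mNmC replicate 2, and 492 to 1142 lower, with 1142 without mN replicate 1. The cause was not tested. No variance trend, other filters, a pseudocount of 0.1 and all libraries kept the counts within 1.5 times. With the replicate number as a block the calls were 196 higher and 64 lower as labelled and 1549 and 730 without mNmC replicate 3, and the numbers were not taken to pair the libraries: over 15 pairs of equal number, deviations correlated at -0.049 to 0.149, with 3 pairs over 0.1, which were also the 3 highest of all pairs of libraries. Of the named genes, 34 were called as labelled, 14 of them under every alternative, and 108 without mNmC replicate 3, 85 of them under every alternative. As-labelled calls lost in fits that leave out 1 of the 12 libraries included those of FIT2 (11 fits), HUG1 (10), BAT2 (9), SCR1 (9) and PDC1 (5). TSA2 as labelled ranged from -0.64 without mNmC replicate 3 to 0.60 without mNmC replicate 1, and SBA1 without that library turned to -0.31 once the length trend was removed. With 2 mNmC libraries left, their spread is assumed to resemble that of the other strains.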
